A study of Mus musculus with 30 samples.

Results

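Hearts of old mice on plain water (old H2O hearts) were compared between ZT10, late in the light phase, and ZT22, late in the dark phase, to see which transcripts differed between these times of day in the aged, untreated heart. The 6 hearts, of 30 samples in the series, were those whose labels gave 12 months of age, no nicotinamide riboside (NR) and either time. The mice were females on a C57BL6 background (the study's methods give a mix of the J and N substrains), kept in 12 h of light and 12 h of dark with chow at will, and the dark-phase hearts were taken under red light. Each time had 3 mice and each mouse gave 1 heart and 1 library of polyadenylated RNA. As references, 6 hearts of untreated 2-month mice (young hearts) and 6 hearts of 12-month mice that had drunk 3 g per L of NR, a precursor of NAD, from 2 months of age (old NR hearts) were taken at the same times. With only these 2 times no phase or amplitude of a rhythm can be read, and a difference between them is called a diurnal difference here.

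The mammalian clock is a loop of transcription factors. ARNTL (also named BMAL1) and CLOCK bind E-boxes and switch on the Per and Cry genes, whose products shut them off again, and the REV-ERB (Nr1d) and ROR receptors compete at a second element, the RORE, to repress or activate Arntl itself. DBP, TEF and HLF activate, and NFIL3 represses, at D-boxes, and in the heart the clock and its outputs are known for their links to metabolism, ion channels and the response to stress.

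Stretches of the promoters of 5 clock genes that the results turn on are shown with their motifs in capitals, the E-box CACGTG in Per1, Ciart and Tef and the core of the RORE, TAGGTCA, in Arntl and Nfil3 (read on either strand). They were taken from RefSeq's promoter table of GRCm38.p6, which covers 250 bases before to 50 bases after the start of a gene and held 11336 of the 15443 genes tested. Each is written 5′ to 3′ on the strand of its gene.
Per1 (chr11:69098738-69098833, plus strand): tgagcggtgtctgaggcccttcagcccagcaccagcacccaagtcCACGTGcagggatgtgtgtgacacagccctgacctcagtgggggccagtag
Ciart (chr3:95882229-95882317, minus strand): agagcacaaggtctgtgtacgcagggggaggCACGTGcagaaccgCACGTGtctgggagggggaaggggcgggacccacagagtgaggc
Tef (chr15:81802534-81802563, plus strand): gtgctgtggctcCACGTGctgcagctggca
Arntl (chr7:113207530-113207559, plus strand): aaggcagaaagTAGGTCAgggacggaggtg
Nfil3 (chr13:52981033-52981062, minus strand): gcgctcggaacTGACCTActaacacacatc
The Ciart stretch carries 2 E-boxes. The Arntl stretch lies after the start site given by RefSeq's promoter table, in the first exon, and the Nfil3 stretch runs from -23 to 6 around its start site. The other 3 stretches lie before the start sites of that table. By the gene bounds of GENCODE M21, however, the Per1, Tef and Nfil3 stretches also lie inside their genes and the Ciart stretch partly does. An E-box was found in the windows of 4 of the 11 clock genes with an entry that were higher at ZT10 (Per1, Ciart, Tef and Bhlhe41). It was also found in 1 of the 5 that were higher at ZT22 (Cry1). Of all tested genes with an entry 11.4% held one, as did 18% of those higher at ZT10 and 11.3% of those higher at ZT22. The RORE core was found in 2 of the 5 clock genes with an entry that were higher at ZT22 and in 0 of the 11 higher at ZT10. It was found in 2.22% of all tested genes with an entry, 1.59% of those higher at ZT10 and 3.54% of those higher at ZT22. The D-box TTANNTAA was found in 2 of the 11 clock genes with an entry that were higher at ZT10 (Per3 and Tef). It was found in 0 of the 5 higher at ZT22, and Rorb, which was not called, also held one. Of all tested genes with an entry 4.44% held one, as did 5.82% of those higher at ZT10 and 2.89% of those higher at ZT22. Both strands were searched, matches were counted whether or not they shared bases with another motif, and a match describes these letters only, not a bound site.

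The libraries held 4987058, 5905919 and 4935128 counts at ZT10 and 3922137, 6122256 and 7562215 at ZT22 (replicates 1 to 3), so the shallowest and the deepest of the 6 were both taken at ZT22. Values given below are counts scaled by edgeR's TMM factors to the mean effective library size of the 18 hearts, here called normalized counts. The tissue matched its label: the 8 cardiomyocyte markers summed to between 28249 and 43227 normalized counts per heart, led by Actc1, cardiac actin. The lung list reached at most 8.188, but only 2 of its 6 genes were listed among the genes counted (Sftpa1, Sftpc, Sftpd and Scgb1a1 were not). Rag1, which marks immature thymocytes, was at 0 in all 6 hearts. On the first principal component of the 6 hearts, which held 43.1% of the variance, the ZT10 hearts lay at -13.4, -8.09 and -13.1 and the ZT22 hearts at 9.57, 11.4 and 13.6, so the times separated. The second, with 26.1%, set the shallowest ZT22 heart (replicate 1, at 18.1) apart from the deepest (replicate 3, at -11.6).

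A pair of technical and tissue measures moved with single hearts. The 8 atrial cardiomyocyte markers summed to 3629, 3674 and 4861 normalized counts at ZT10 and to 1661, 4595 and 1842 at ZT22, so ZT22 replicates 1 and 3 were low while ZT22 replicate 2 lay within the range of the ZT10 hearts. Myl7, the atrial myosin light chain and per length the most abundant of the 8, had 696.9, 563.2 and 818.3 normalized counts at ZT10 and 168.5, 519.5 and 226.3 at ZT22. Sln, encoding sarcolipin, an atrial inhibitor of the calcium pump, had 274.3, 248.5 and 380.1 against 33.1, 205.6 and 57.84. For both genes the times did not overlap and ZT22 replicate 2 was the nearest to the ZT10 hearts. Bmp10, made in the right atrium, was high in both hearts numbered 2, with 333.9 and 1243 normalized counts, and between 2.325 and 30.09 in the other 4. None of the 8 markers was at 0 in all hearts. In bulk hearts, fewer cells of a type and less RNA per cell cannot be told apart.

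**Figure D1:**
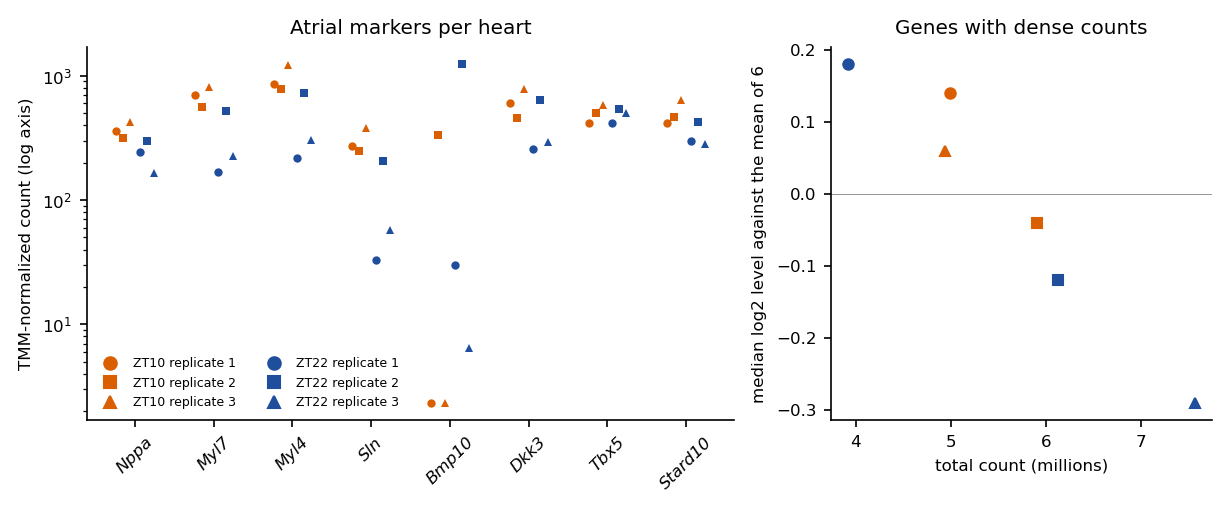
The left panel plots the normalized count (log axis) of the 8 atrial markers in each of the 6 old H2O hearts, ZT10 and ZT22 by colour and the replicate by symbol; the right panel plots, for the same hearts, the median log2 level of the 407 most densely counted genes against the total count. The ZT22 hearts numbered 1 and 3 sit lowest for Myl7 and Sln, Bmp10 is high in both hearts numbered 2, and the densely counted genes lie between 0.18 (shallowest library) and -0.29 (deepest).

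The second measure was depth. The authors removed duplicate reads by position, which limits how many reads a short, abundant transcript can keep, and 407 genes had over 0.5 normalized counts per exonic base in at least 1 heart (the median over all tested genes was 0.0471). The median log2 level of these genes against their mean over the 6 hearts was 0.14, -0.04 and 0.06 at ZT10 and 0.18, -0.12 and -0.29 at ZT22, lowest in the deepest library. Of the 407, 381 had a log2 fold change above 0 at ZT10 against ZT22, with a median of 0.12, and 5 were called (Rrad, Plin5, Myl7, Sun1 and Herpud1). The part of atrial tissue and of depth in the results below was not tested as a cause, and fits with either as a covariate were run as alternatives.

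In all, 15443 genes were tested with edgeR's quasi-likelihood test and a two-sided Benjamini-Hochberg adjusted p under 0.05 is named a call. In old H2O hearts 649 genes, 4.20% of those tested, were called, of which 241 (1.56%) were higher at ZT10 and 408 (2.64%) higher at ZT22. The genes higher at ZT22 thus made up 62.9% of the calls. Most differences were small: the median absolute log2 fold change of the calls was 0.48, against 0.13 over all tested genes, and 41 genes higher at ZT10 and 45 higher at ZT22 differed more than 2-fold. The values of the times did not overlap for 634 of the 649 calls, whereas 22.2% of all tested genes had no overlap. With 3 mice against 3, the smallest p that an exact permutation test could give for 1 gene is 0.1, and calls rest on the spread shared over genes and over all 18 hearts. The share called went from 0.96% of the genes under 20 normalized counts to 5.75% of those between 100 and 500. The number depended on single hearts: it was 363 without ZT10 replicate 1, 349 without ZT10 replicate 3, 396 without ZT22 replicate 2 and 746 without ZT22 replicate 1. With the summed atrial markers as a covariate, an alternative chosen after seeing the data, 365 genes were called, 346 of them among the 649.

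**Figure D2:**
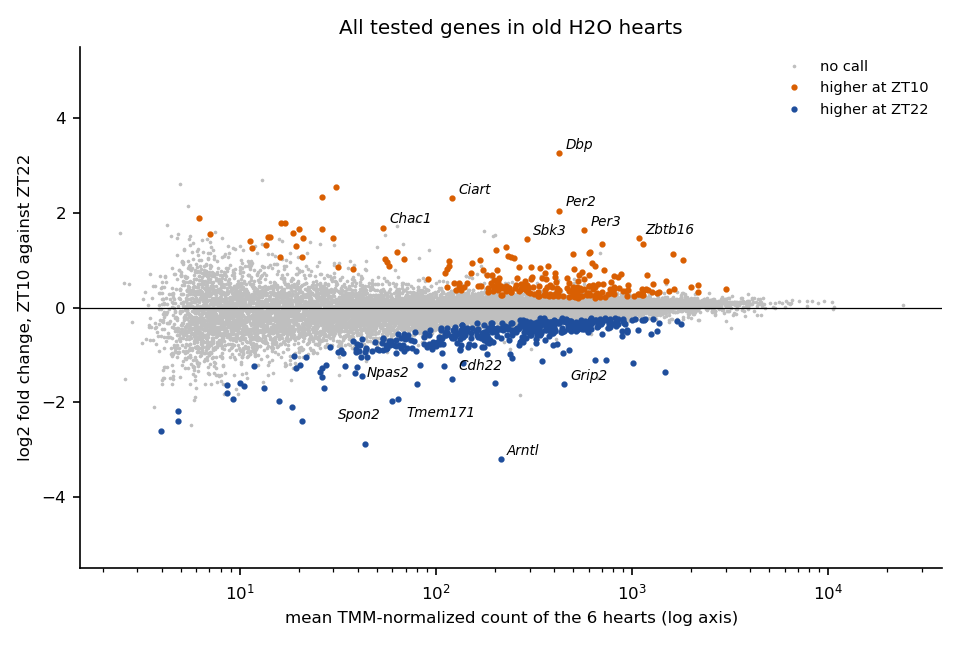
Each point is 1 of the 15443 tested genes, with its mean normalized count over the 6 old H2O hearts on the x axis (log axis) and its log2 fold change at ZT10 against ZT22 on the y axis; grey points were not called and coloured points were called (241 higher at ZT10, 408 higher at ZT22). The farthest of the named genes are Dbp (3.26) and Arntl (-3.19), at moderate counts.

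Of the 21 genes of the clock loop, 19 were called (90.5%, against 4.20% of all tested genes), 13 higher at ZT10 and 6 higher at ZT22, and the absolute log2 fold change over the 21 had a median of 1.07. The 3 called activators were higher at ZT22 and most repressors and PAR bZIP factors higher at ZT10. The count was 18 or 19 whichever heart was left out and 18 with the atrial covariate, the lost call being that of Rora.

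Among the activators, Arntl (chr7:113207465-113314126 on GRCm38, as all positions of genes here) had 38.52, 36.46 and 53.47 normalized counts at ZT10 and 335.5, 401.2 and 417 at ZT22. All ZT22 hearts were far above all ZT10 hearts, and the log2 fold change was -3.19 (standard error, SE, 0.14; adjusted p = 2.281e-12, edgeR), or 9.133 times as much at ZT22. Npas2, a paralog of Clock that can replace it, had 39.69, 38.38 and 41.84 against 115.8, 117.4 and 127.8 (log2 fold change -1.60, SE 0.16, adjusted p = 1.076e-06, edgeR). Clock differed less, with 691.1, 645.8 and 770.6 against 1133, 1088 and 973.9 (log2 fold change -0.60, adjusted p = 0.0008634, edgeR). For these 3 genes the times did not overlap. Arntl2, the second Bmal gene, overlapped between the times and was not called (log2 fold change -0.46, SE 0.19, adjusted p = 0.1988, edgeR).

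All 6 genes of the repressor arm were called. Per2 (chr1:91415982-91459324) had 714.4, 742.7 and 616 normalized counts at ZT10 against 115.8, 185.6 and 182.1 at ZT22, a log2 fold change of 2.05 (SE 0.15, adjusted p = 1.003e-08, edgeR). Per3 (chr4:151003652-151044665) had the tightest groups, with 863.8, 882.8 and 833.4 against 281.3, 276.6 and 276.3 (log2 fold change 1.63, SE 0.08). Per1, which also answers to glucocorticoids, had 1003, 967.2 and 1093 against 312.9, 373 and 489.8 (log2 fold change 1.35, adjusted p = 1.124e-06, edgeR). The 3 Per genes were thus between 2.547 and 4.147 times as high at ZT10, without overlap. Ciart, a repressor of CLOCK and ARNTL also named Chrono, went the same way by more, from 42.12, 30.02 and 47.84 at ZT22 to 218.3, 196.7 and 187.1 at ZT10 (4.965-fold). The cryptochromes split: Cry2 was higher at ZT10 (log2 fold change 0.61, SE 0.07) and Cry1 higher at ZT22 (-0.47, SE 0.09), both without overlap.

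Of the nuclear receptors, Nr1d2 (Rev-erb beta) had 1662, 1560 and 1683 normalized counts at ZT10 against 797.3, 605 and 546.2 at ZT22 (log2 fold change 1.35, SE 0.11) and Nr1d1 (Rev-erb alpha) had 795, 916.4 and 766 against 418.2, 343.9 and 362 (1.16, SE 0.14). Neither repressor overlapped between the times. Of the activating receptors, Rora was higher at ZT10 by 0.40 on the log2 scale (SE 0.11, adjusted p = 0.02975, edgeR), a call lost when any heart but ZT10 replicate 1 was left out. Rorb, at 19.56 to 46.41 normalized counts, overlapped and was not called.

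The largest difference in favour of ZT10 among the clock genes was that of Dbp (chr7:45705088-45710203), with 823, 748.4 and 735.8 normalized counts at ZT10 against 90.26, 90.98 and 64.98 at ZT22 (log2 fold change 3.26, SE 0.13, adjusted p = 4.858e-13, edgeR). Its relatives differed less: Hlf was 2.258-fold and Tef 2.017-fold higher at ZT10, the latter with 2552, 2387 and 2357 against 1369, 1172 and 1091. Nfil3, which opposes them at the D-box, was higher at ZT22, with 143.6, 181.4 and 147.6 against 318.9, 343 and 335.6 (log2 fold change -1.07, SE 0.16). The DEC repressors Bhlhe40 and Bhlhe41 were higher at ZT10 by 0.76 and 0.46 on the log2 scale. None of the 6 genes of this group overlapped between the times.

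**Figure D3:**
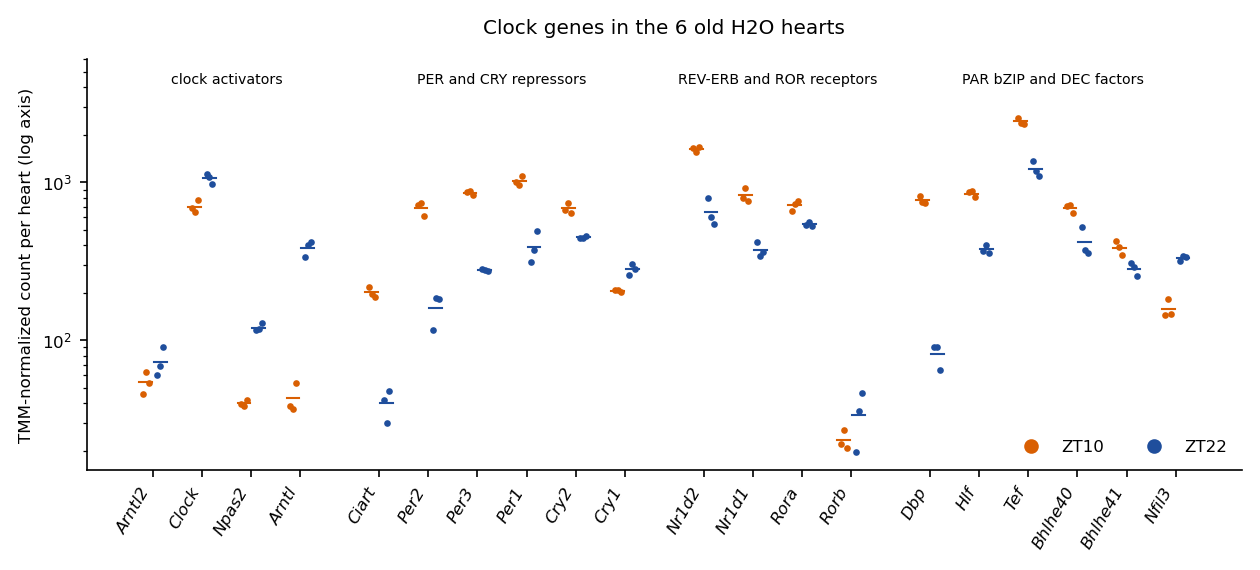
Points are the normalized counts (log axis) of 20 of the 21 clock genes in the 6 old H2O hearts, 3 at ZT10 and 3 at ZT22, with a bar at each mean; genes are grouped into activators, PER and CRY repressors, REV-ERB and ROR receptors, and PAR bZIP and DEC factors. Arntl and Dbp lie farthest apart between the times and in opposite directions, and Arntl2 and Rorb overlap.

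Of 18 genes known as clock outputs, 10 were called (55.6%, against 4.20% of all tested genes), 7 higher at ZT10. The count was 9 or 10 whichever heart was left out, and Bhlhe41, one of the 7, was also counted in the loop. Tspan4, a tetraspanin, had 328, 333.9 and 295.2 normalized counts at ZT10 against 139.9, 140.1 and 166.4 at ZT22 (log2 fold change 1.09, SE 0.10). Coq10b, which binds coenzyme Q, had 429.6, 427 and 452.2 against 255.7, 242 and 237.1 (0.84, SE 0.06). Usp2, a deubiquitinase that acts on clock proteins, was 1.627-fold higher at ZT10. These 3 did not overlap between the times. Tfrc, the transferrin receptor that brings iron into cells, was among the 12 largest calls toward ZT22 (chosen without overlap and at a mean of at least 50 normalized counts). It had 644.4, 584.4 and 618.4 against 1843, 1413 and 938.2 (log2 fold change -1.17, SE 0.22), and the ZT22 hearts were more spread than the ZT10 hearts. Nampt, the salvage enzyme of NAD synthesis and a well-known clock target, had 2198, 1987 and 2009 against 2214, 1879 and 1722, overlapped and was not called (log2 fold change 0.10, SE 0.10, adjusted p = 0.6594, edgeR). Of 12 clock kinases and ubiquitin ligases 2 were called (16.7%), Usp2 again and Fbxw7, a subunit of a ubiquitin ligase, 1.25-fold higher at ZT22 and not called without ZT10 replicate 3.

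Of 20 glucocorticoid targets, 7 were called (35%, against 4.20% of all tested genes), 6 of them higher at ZT10 (6 to 8 calls whichever heart was left out). Zbtb16, a zinc finger factor induced by glucocorticoids, had 1707, 1638 and 1481 normalized counts at ZT10 against 344.5, 590.5 and 768.3 at ZT22 (log2 fold change 1.46, SE 0.21, adjusted p = 0.0001906, edgeR). Klf15, a regulator of amino acid and lipid use in heart muscle, had 849.8, 780.1 and 879.9 against 443.8, 469.5 and 459.1 (0.87, SE 0.08, adjusted p = 3.387e-07, edgeR). Neither gene overlapped between the times, and Zbtb16 varied more than 2-fold among the ZT22 hearts. Tsc22d3 (Gilz), an anti-inflammatory target of the receptor, was 1.564-fold and Map3k6, a stress kinase, 2.446-fold higher at ZT10. Fkbp5, the receptor's co-chaperone and another classical target, overlapped and was not called (0.43, adjusted p = 0.323, edgeR), nor was Nr3c1, the receptor itself (0.00, adjusted p = 0.988, edgeR). Per1 and Klf15 also stand on the clock lists.

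The other genes among the 12 largest calls in each direction were of several kinds. The 12 were taken from calls whose times did not overlap and whose mean was at least 50 normalized counts. Larger calls with overlap, such as that of Angptl4 (log2 fold change -1.58), were thus left out. Chac1, which degrades glutathione, was 3.219-fold and Lonrf1, a RING finger protein, 2.307-fold higher at ZT10. Toward ZT22 stood Spon2, a secreted matrix protein (3.9-fold), Tmem171, a membrane protein (3.779-fold), Grip2, a scaffold protein (3.042-fold), Cdh22, a cadherin (2.825-fold), Myoc, secreted myocilin (2.347-fold), Vgll3, a cofactor of TEAD factors (2.292-fold), Srrm4, a splicing regulator (2.174-fold), Slc41a3, a magnesium transporter (2.159-fold), and Adam19, a membrane protease (2.157-fold). These genes lacked overlap between the times by the way they were chosen. Sbk3, a kinase gene, was 2.736-fold higher at ZT10, but with 345.5, 321.4 and 619.5 normalized counts against 81.23, 290.2 and 85.68 it followed the pattern of the atrial markers over the ZT22 hearts. With the atrial covariate its log2 fold change went from 1.45 to 0.94 (adjusted p = 0.0101, edgeR), and it was not called in either DESeq2 fit, nor without ZT10 replicate 3, ZT22 replicate 1 or ZT22 replicate 3. Myl7, the one called atrial marker, went from 1.14 to 0.64 (adjusted p = 0.00879, edgeR). Its call was lost in both DESeq2 fits and without ZT10 replicate 1, ZT10 replicate 3, ZT22 replicate 1 or ZT22 replicate 3. Of the 8 atrial markers 0 were called without any 1 of these 4 hearts and 5 without ZT22 replicate 2 or with the replicate block.

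Metabolic genes were read in several lists, which were not compared with each other. Of 37 genes of fatty acid oxidation and PPAR signalling, 4 were called (10.8%, against 4.20% of all tested genes), all higher at ZT22, while the median log2 fold change of the list was 0.07. Ppargc1b, a coactivator of mitochondrial genes, had 262.7, 307 and 328.9 normalized counts at ZT10 against 436.3, 411.2 and 414.8 at ZT22 (log2 fold change -0.48, SE 0.11, adjusted p = 0.01671, edgeR). The others were Angptl4, an inhibitor of lipoprotein lipase, Acot1, an acyl-CoA thioesterase, and Plin5, a lipid droplet protein of oxidative tissue. Angptl4 spread from 60.7 to 183.7 at ZT10 and from 91.76 to 483.4 at ZT22, so its times overlapped. The count was 0 without ZT10 replicate 1 and with the atrial covariate, 1 without ZT10 replicate 2 or ZT22 replicate 2, 2 without ZT10 replicate 3 or ZT22 replicate 3, and 7 without ZT22 replicate 1. None of the enzymes of the oxidation cycle itself was called.

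In cholesterol and fatty acid synthesis, 5 of 33 genes were called (15.2%), 4 higher at ZT22. Srebf1, the lipogenic transcription factor, had 316.4, 336.8 and 356.8 normalized counts at ZT10 against 407.7, 448.5 and 410.6 at ZT22 (log2 fold change -0.33, SE 0.08, adjusted p = 0.0201, edgeR), without overlap and 1.256-fold higher at ZT22. Fdft1, which makes squalene, was 1.195-fold higher at ZT10. Its call was lost in both DESeq2 fits, with edgeR on only the groups compared and with the replicate block. It was also lost without any 1 heart but ZT22 replicate 1. The count of the list was 1 without ZT22 replicate 2, 2 without any 1 of the ZT10 hearts and 3 without ZT22 replicate 3. In glucose uptake, glycolysis and glycogen 1 of 37 was called (2.7%), Ppp1r3a, a glycogen-targeting subunit of protein phosphatase 1 (1.263-fold higher at ZT10, adjusted p = 0.04968, edgeR), which was not called without any 1 of the ZT10 hearts, ZT22 replicate 2 or ZT22 replicate 3.

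Of 35 genes of insulin, FOXO, mTOR and AMPK signalling, 5 were called (14.3%) and 4 of these were higher at ZT10. Pik3r1, the regulatory subunit of PI3 kinase, had 2455, 2262 and 2184 normalized counts at ZT10 against 1598, 1752 and 1752 at ZT22 (log2 fold change 0.43, SE 0.08). Foxo3, the transcription factor that PI3 kinase signalling restrains, was 1.287-fold and Trib1, a pseudokinase, 1.519-fold higher at ZT10. Prkaa1, a catalytic subunit of AMPK, was 1.221-fold higher at ZT22. The times did not overlap for these 4, but the count was 3 without ZT10 replicate 3 or ZT22 replicate 3 and 2 without ZT22 replicate 2.

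Of the 12 NAD synthesis genes tested, Nmrk2 was the one called (8.33%, against 4.20% of all tested genes). Nmrk2 phosphorylates NR, and had 109.7, 112.3 and 111.6 normalized counts at ZT10 against 189.5, 153.8 and 162.8 at ZT22 (log2 fold change -0.58, SE 0.16, adjusted p = 0.04407, edgeR). The times did not overlap, but the call was lost whichever of the 6 hearts was left out. None of 16 NAD consumers was called by edgeR (2 at an unadjusted p under 0.05), Sirt1, the deacetylase tied to the clock, having 337.4, 308 and 327.8 against 275.3, 252 and 286.3 (log2 fold change 0.25, adjusted p = 0.166, edgeR). In heme synthesis and breakdown 0 of 13 were called (1 at an unadjusted p under 0.05) and in autophagy and muscle atrophy 1 of 27, 3.7% (Bnip3l, a mitophagy receptor). Among antioxidant genes 2 of 27 were called, 7.41% against 4.20% of all tested genes (1 gene without ZT10 replicate 1, ZT10 replicate 3, ZT22 replicate 2 or ZT22 replicate 3). The call of Bnip3l was lost without the same 4 hearts, each in turn. Nfe2l2 (Nrf2), the master regulator of antioxidant genes, was one of those, with 900, 881.8 and 847.3 against 687.5, 720.6 and 678.3 (log2 fold change 0.33, SE 0.06).

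Among the ion channels, 3 of 21 potassium channel genes were called (14.3%, against 4.20% of all tested genes). Kcna5, the channel of an ultrarapid repolarizing current, had 375.9, 364.6 and 399.8 normalized counts at ZT10 against 204.6, 243.8 and 264.9 at ZT22 (log2 fold change 0.65, SE 0.12, adjusted p = 0.002059, edgeR), and with the atrial covariate 0.69 (adjusted p = 0.00487, edgeR). Kcnj3, a subunit of the acetylcholine-gated channel and abundant in atria, was 1.254-fold higher at ZT10, and was not called with that covariate (log2 fold change 0.23, adjusted p = 0.13, edgeR). Kcne1, an auxiliary subunit of a slow repolarizing channel, was higher at ZT22 with overlap between the times. Kcna5 was thus the one of the 3 whose call did not depend on the atrial covariate, and the count of the list was 1 without ZT10 replicate 2 or ZT10 replicate 3, and 2 without any 1 of the ZT22 hearts.

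Of 26 calcium, sodium and pacemaker channel genes, Cacnb2, an auxiliary subunit of the L-type calcium channel, had 1251, 1257 and 1308 normalized counts at ZT10 against 1067, 950.8 and 914 at ZT22 (log2 fold change 0.39, SE 0.07). Hcn4, the main pacemaker channel, went the other way, with 144.8, 116.1 and 126.7 against 197.1, 219.3 and 178.5 (-0.62, SE 0.12, adjusted p = 0.004797, edgeR). Both were without overlap, and they were the 2 calls of the list (7.69%, against 4.20% of all tested genes). Without ZT22 replicate 2 the list had 4 calls. None of 26 sarcomere and Z-disc genes was called by edgeR (3 at an unadjusted p under 0.05), and DESeq2 on all 18 hearts called Tcap, the titin cap protein, with a log2 fold change of 0.48 (adjusted p = 0.0412, DESeq2).

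Of 33 genes of MAPK feedback and growth factor signalling, 8 were called (24.2%, against 4.20% of all tested genes), 5 higher at ZT10. Without ZT22 replicate 2 the list had 5 calls. Besides Map3k6, Rapgef5, a Rap exchange factor, was 1.309-fold and Dusp7, an ERK phosphatase, 1.285-fold higher at ZT10, and Fgf9, a growth factor, 1.543-fold higher at ZT22. Of 30 genes of beta-adrenergic and cAMP signalling, 3 were called (10%, against 4.20% of all tested genes). They were Pde4b, a cAMP phosphodiesterase (619.9, 608.3 and 640.5 against 473.9, 456.7 and 469.8, log2 fold change 0.42), Adra1b, an alpha-adrenergic receptor (-0.49), and Arrb1, an arrestin (-0.27), whose call was lost without ZT10 replicate 2, ZT10 replicate 3 or ZT22 replicate 2. None of these named genes overlapped between the times.

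Of 25 cell cycle and DNA replication genes, 5 were called (20%, against 4.20% of all tested genes) and these 5 were higher at ZT10. Cdk6, a cell cycle kinase not on the list, was called higher at ZT22 (-0.57, adjusted p = 0.004942, edgeR). Wee1, a kinase that holds back mitosis and a clock target, had 329.2, 419.3 and 418.4 normalized counts at ZT10 against 243.7, 222 and 189.2 at ZT22 (log2 fold change 0.86, SE 0.12). Mki67, which marks dividing cells, had 123.7, 127.6 and 212.7 against 69.2, 82.79 and 79.26 (0.98, SE 0.23, adjusted p = 0.01673, edgeR). Top2a, a topoisomerase of dividing cells, had 79.38, 66.21 and 119.7 against 34.6, 34.57 and 44.27. ZT10 replicate 3 was the highest heart for Mki67, Top2a and Cdk1, the mitotic kinase (1.66, SE 0.37), and without it 1 gene of the list was called; without ZT22 replicate 2 or ZT22 replicate 3 the count was 2. The fifth was Ccnb2, a mitotic cyclin. None of the 5 genes overlapped between the times, and the 6 replication helicase genes Mcm2 to Mcm7 had log2 fold changes between -0.13 and 0.23 and were not called.

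**Figure D4:**
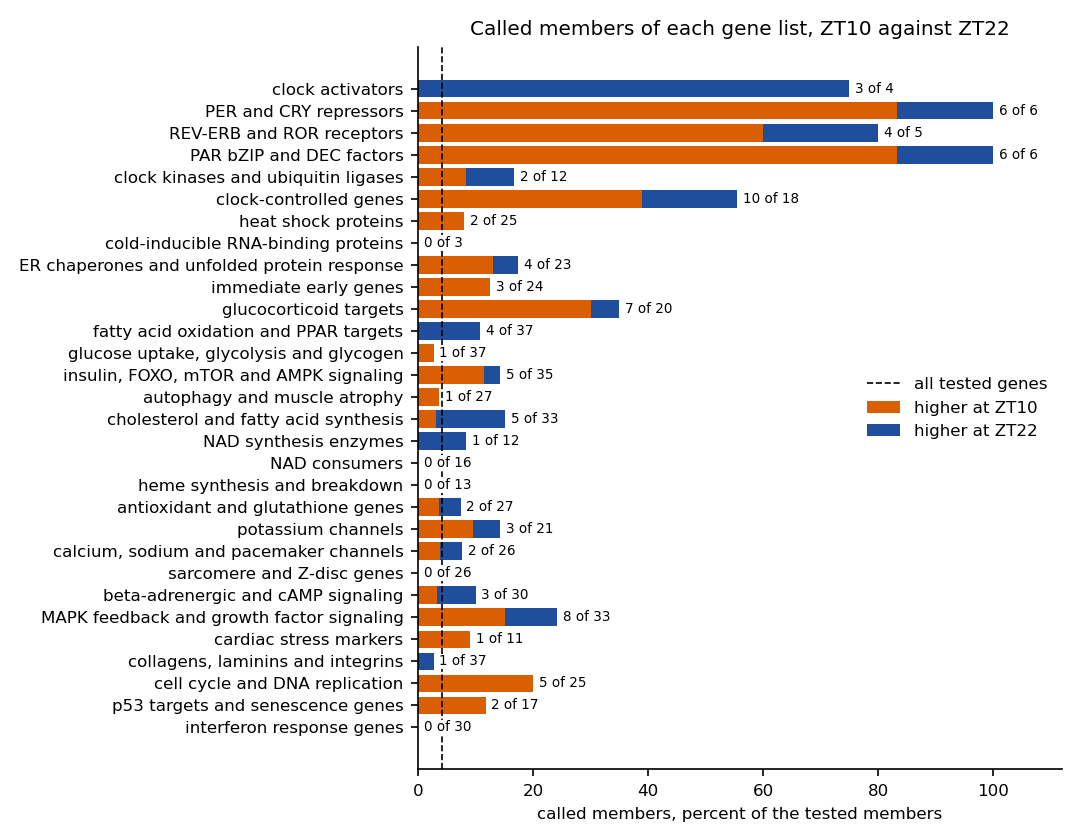
Bars give the called members of each gene list as a percent of its tested members in old H2O hearts, split into those higher at ZT10 and those higher at ZT22, with the numbers beside each bar; the dashed line is the 4.20% of all tested genes. The clock lists reach 75% to 100%, clock-controlled genes 55.6% and glucocorticoid targets 35%, and several lists have no called member.

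Of the remaining lists, 1 of 37 collagens, laminins and integrins was called (2.7%, against 4.20% of all tested genes). It was Fn1, fibronectin (1.277-fold higher at ZT22, not called without ZT10 replicate 2, ZT10 replicate 3 or ZT22 replicate 3). Of 17 p53 targets 2 were called (11.8%), Trp53inp1 and Sesn1 (both higher at ZT10, 0 without any 1 of the ZT10 hearts or ZT22 replicate 2, 1 without ZT22 replicate 3). None of 30 interferon response genes was called by edgeR (4 at an unadjusted p under 0.05), the lowest p being that of Bst2, a restriction factor that overlapped between the times. Among markers of other cells, the 10 endothelial markers summed to 11086, 11080 and 11200 normalized counts at ZT10 and 12487, 12144 and 11628 at ZT22, without overlap. Cldn5, the claudin of endothelial junctions, had 147.1, 143 and 155.8 against 209.1, 252.9 and 260.6 (log2 fold change -0.72, SE 0.12), and Vwf was called toward ZT22 with overlap, a call lost without ZT10 replicate 1, ZT10 replicate 3, ZT22 replicate 2 or ZT22 replicate 3. Cdh5, the most abundant of the 10 per length, had 1906, 1795 and 1909 against 2062, 1781 and 1702 and was not called, and none of the 10 was at 0. The part of endothelial content in the other calls was not tested.

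Single members of other marker lists were also called, all higher at ZT22. They were Pdgfra of the fibroblast list (1.266-fold), Cspg4 of pericytes (1.332-fold), Csf1r of macrophages (1.274-fold) and Ighm, an immunoglobulin heavy chain (1.835-fold). The sums of these 4 lists overlapped between the times, and their most abundant members per length, Gsn, Rgs5, C1qa and Igkc, were not called. Csf1r, Cspg4 and Ighm were not called without ZT10 replicate 1 or ZT10 replicate 3, Cspg4 also without ZT22 replicate 2, and Ighm also without ZT22 replicate 3.

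Whether the diurnal differences were those of young hearts was asked with the age by time interaction, the log2 fold change (ZT10 against ZT22) in old H2O hearts minus that in young hearts. It was called for 1064 genes, 6.89% of those tested. The interaction uses the same 6 old H2O hearts as the comparison between times, so each comparison's own values are given. In other hearts, the comparison between times gave 2219 calls in young hearts (14.4%) and 829 in old NR hearts (5.37%). In the same direction, 239 genes were called in both old H2O and young hearts (36.8% of the old H2O and 10.8% of the young calls), and 236 in both old H2O and old NR hearts (36.4% of the old H2O and 28.5% of the old NR calls).

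Of the 21 clock genes 11 had a called interaction (8 to 12 leaving out 1 heart), against 6.89% of all tested genes. In all 11 the absolute log2 fold change was smaller in old H2O than in young hearts. Young hearts held 11.15 ± 2.965 normalized counts of Arntl at ZT10 and 660.5 ± 69.39 at ZT22 and old H2O hearts 42.82 ± 9.281 and 384.6 ± 43.24 (n = 3 each, ± SD), so that the interaction was 2.67 (SE 0.30, adjusted p = 1.717e-05, edgeR). For Per3 the young hearts held 1285 ± 70.71 and 141.7 ± 18.61 and the old H2O hearts 860 ± 24.91 and 278.1 ± 2.804 (n = 3 each, ± SD), and the interaction was -1.55 (SE 0.13, adjusted p = 5.871e-07, edgeR). Both were higher in old hearts at their low time and lower at their high time. Nfil3 had 1.60 and Dbp -1.39. The interaction calls of Per1 and Hlf were each lost under 10 of the 21 alternatives run for this interaction. Per2 had log2 fold changes of 2.05 in old H2O and 1.66 in young hearts, and its interaction was not called (0.39, SE 0.21, adjusted p = 0.2875, edgeR), nor were those of Cry2, Nr1d1, Ciart, Npas2 and Bhlhe40.

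Heat shock proteins, the cytosolic chaperones, went the other way in young hearts. Of 25 genes, 2 were called in old H2O hearts, both higher at ZT10 (8%, against 4.20% of all tested genes), and the median log2 fold change was 0.16, with 24 of 25 above 0. In young hearts 12 of the 25 were called (14.4% over all tested genes), all higher at ZT22, with a median of -0.36. A called interaction was found for 12 (9 to 15 leaving out 1 heart, and 6.89% over all tested genes), all positive. In old H2O hearts, Hsp90aa1, the inducible HSP90, had 701.6, 629.5 and 661.4 normalized counts at ZT10 and 576.2, 553.2 and 482 at ZT22, a log2 fold change of 0.32 (SE 0.09, adjusted p = 0.04437, edgeR). In young hearts it had 450.3 ± 36.53 and 792.3 ± 60.3 (n = 3 each, ± SD), a log2 fold change of -0.82, and the interaction was 1.13 (SE 0.13, adjusted p = 1.424e-05, edgeR). The times did not overlap in old H2O hearts and their order was reversed in young hearts. The old H2O call of Hsp90aa1 was lost without any 1 heart but ZT22 replicate 1, and that of Dnajb1, an HSP70 co-chaperone, whichever heart was left out. With the atrial covariate 0 genes of the list were called between the times and 12 had the interaction. Beside the positive list median stand the depth values above: 8 of the 25 genes are among the 407 densely counted ones, and with library size as a covariate the median was 0.11.

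The promoters of 2 heat shock genes are shown because many genes of this list held the core of a heat shock element, GAANNTTC. It was found in 11 of the 20 genes of the list with an entry (55%), against 7.01% of all tested genes with an entry. Hspb1, a small heat shock protein, and Dnaja1, an HSP70 co-chaperone, are written with the elements in capitals.
Hspb1 (chr5:135887777-135887874, plus strand): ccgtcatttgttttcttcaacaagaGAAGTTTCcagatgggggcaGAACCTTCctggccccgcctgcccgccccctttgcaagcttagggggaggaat
Dnaja1 (chr4:40722333-40722362, plus strand): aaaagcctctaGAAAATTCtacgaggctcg
Neither was called between the times in old H2O hearts (log2 fold changes 0.20 and 0.37), and both had a called interaction, of 0.60 for Hspb1 and 0.99 for Dnaja1. The following genes, also chosen after their values were seen, had the largest interactions of the list. Hspa1a and Hspa1b, inducible HSP70 genes, reached 4.03 and 3.25, but they are near-identical copies whose counts are uncertain, and Hspa1a in young hearts at ZT22 varied as 89.52 ± 78.59 (n = 3, ± SD). Hsph1, an HSP110 chaperone, had 883.7, 899.1 and 764.8 against 667.9, 762.4 and 724.7 in old H2O hearts and 593.7 ± 124.6 against 1190 ± 59.44 (n = 3 each, ± SD) in young hearts, an interaction of 1.24 (SE 0.14, adjusted p = 2.508e-05, edgeR). Cirbp, a cold-inducible RNA-binding protein, had the opposite pattern, 451.8, 442.3 and 403.3 against 452.8, 474 and 566.2 in old H2O hearts and 556.1 ± 45.81 against 251.5 ± 41.1 (n = 3 each, ± SD) in young hearts (interaction -1.37, SE 0.14, adjusted p = 3.895e-06, edgeR). Cirbp was not called between the times in old H2O hearts (-0.22, adjusted p = 0.2241, edgeR), and neither were the other 2 cold-inducible genes.

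ER chaperones, which fold secreted proteins, also differed between the ages. In old H2O hearts 4 of 23 were called (17.4%, against 4.20% of all tested genes), and 2 without ZT10 replicate 1 or ZT10 replicate 2. Herpud1, an ER degradation factor (1.4-fold), Dnajb9, a co-chaperone (1.286-fold), and Ddit3 (Chop), a stress transcription factor (1.378-fold), were higher at ZT10, and Ckap4, an ER membrane protein, was 1.311-fold higher at ZT22. The call of Ddit3 was lost without any 1 heart but ZT10 replicate 3. The median log2 fold change was 0.10. In young hearts 16 of 23 were called (14.4% over all tested genes), all higher at ZT22 (median -0.39). A called interaction was found for 16 (6.89% over all tested genes, and 11 of the list without young ZT10 replicate 2), all positive. Manf, a secreted ER stress protein chosen after its values were seen, had 291.8, 273.5 and 269.7 normalized counts at ZT10 and 275.3, 253.8 and 226.3 at ZT22 in old H2O hearts, which overlapped, and 217.5 ± 27.72 and 511.2 ± 50.53 in young hearts (n = 3 each, ± SD). Its interaction was 1.40 (SE 0.14, adjusted p = 2.961e-06, edgeR).

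Of 24 immediate early genes, which respond within minutes to stimuli, 3 were called in old H2O hearts (12.5%, against 4.20% of all tested genes), all higher at ZT10 (median log2 fold change of the list 0.28). Ier3 had 507.8, 464.4 and 468.4 normalized counts at ZT10 against 321.9, 258.4 and 215.6 at ZT22 (log2 fold change 0.89, SE 0.12, adjusted p = 9.438e-05, edgeR). Ier5, a partner of heat shock factor, had 588.3, 488.4 and 432.4 against 302.4, 322.1 and 287.8 (0.73, SE 0.14), and Maff, a small MAF factor, 134.2, 156.4 and 141.8 against 82.74, 85.52 and 79.97 (0.81, SE 0.17). All 3 were without overlap, and all 3 had a called interaction with age (0.59, 1.16 and 1.49), that of Ier3 being lost under 9 of the 21 alternatives. Over the list, 12 of 24 were called in young hearts (14.4% over all tested genes), all higher at ZT22 (median -0.45). A called interaction was found for 13 (6.89% over all tested genes), all positive. This count fell by more than 1.5 times, to between 4 and 8, when any 1 heart was left out except young ZT22 replicate 3 (9) and young ZT22 replicate 1 (14), and was 8 with the atrial covariate.

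Interactions with age were also called in smaller lists. Of 11 cardiac stress markers, 1 was called in old H2O hearts (9.09%, against 4.20% of all tested genes). It was Ccn2, a matricellular growth factor (797.3, 848.2 and 1110 against 514.5, 484.9 and 581.2, log2 fold change 0.79, adjusted p = 0.03972, edgeR), a call lost whichever of the 6 hearts was left out. In this list 6 had a called interaction (4 to 6 leaving out 1 heart, and 6.89% over all tested genes), 5 of them positive. Nppb, the ventricular natriuretic peptide chosen after its values were seen, had 572, 482.6 and 538.2 against 642.3, 477.7 and 399.9 in old H2O hearts, which overlapped, and 240.7 ± 121.2 against 654.8 ± 15.64 (n = 3 each, ± SD) in young hearts (interaction 1.53, SE 0.29, adjusted p = 0.003088, edgeR). Myh7, the slow myosin heavy chain, was the one negative interaction (-0.94). Of the 30 beta-adrenergic and cAMP genes 8 had a called interaction (6.89% over all tested genes), 6 of them positive, Pde4b (0.75) among them. The list had 5 such calls without any 1 of the old H2O ZT10 hearts, old H2O ZT22 replicate 2, young ZT10 replicate 3 or young ZT22 replicate 3, and 4 without young ZT10 replicate 2. Of the 25 cell cycle genes 6 had a called interaction (6.89% over all tested genes), 5 of them positive. Mki67 had 82.73 ± 29.28 at ZT10 and 135.1 ± 20.59 at ZT22 (n = 3 each, ± SD) in young hearts, an interaction of 1.69 (SE 0.33, adjusted p = 0.003903, edgeR).

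**Figure D5:**
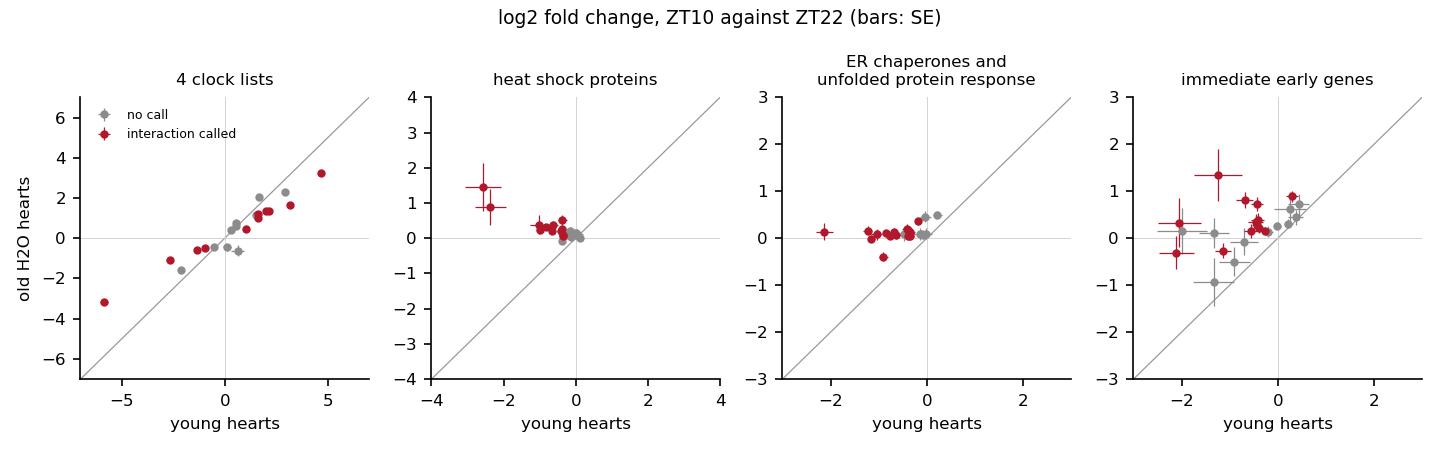
Each point is a gene of 4 lists, with its log2 fold change at ZT10 against ZT22 in young hearts on the x axis and in old H2O hearts on the y axis (bars are SEs; the line marks equal changes; red marks a called age by time interaction). The 11 clock genes in red had smaller changes in old than in young hearts, Per2 (2.05 against 1.66) is among those with a larger one, and the list medians of the heat shock, ER chaperone and immediate early genes are 0.16, 0.10 and 0.28 in old H2O hearts and -0.36, -0.39 and -0.45 in young hearts, with members such as Ckap4 (-0.39) below 0 in old hearts.

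The NR by time interaction, the log2 fold change in old NR hearts minus that in old H2O hearts, was called for 53 genes, 0.343% of those tested. It again shares the 6 old H2O hearts. The count was 26 without old H2O ZT10 replicate 1, 15 without old H2O ZT10 replicate 3, 22, 31 and 29 without replicates 1, 2 and 3 of old NR at ZT10 and 35 without replicate 2 of old NR at ZT22. Of the 21 clock genes only Arntl was called, with 20.08 ± 6.547 normalized counts at ZT10 and 485.1 ± 26.45 at ZT22 in old NR hearts (n = 3 each, ± SD), a log2 fold change of -4.55 against -3.19 in old H2O hearts (interaction -1.36, SE 0.26, adjusted p = 0.02006, edgeR). This call was lost with the atrial covariate and without old H2O ZT10 replicate 3, old NR ZT10 replicate 1 or old NR ZT10 replicate 3, the interaction lying between -1.61 and -1.15 over the 21 alternatives. Nmrk2, the NR kinase, was higher at ZT22 in old H2O hearts (-0.58) and had a log2 fold change of 0.58 in old NR hearts (interaction 1.17, adjusted p = 0.02006, edgeR), a call lost with the atrial covariate and without old H2O ZT10 replicate 1, old H2O ZT10 replicate 3 or old NR ZT10 replicate 2. Klf15 had 704.3 ± 49.81 and 646.8 ± 72.83 in old NR hearts (n = 3 each, ± SD), a log2 fold change of 0.13 against 0.87 in old H2O hearts (interaction -0.73, adjusted p = 0.005623, edgeR), a call kept under all 21 alternatives.

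Further genes called both in old H2O hearts and for this interaction changed sign or size with NR. Cdk6, a kinase of the G1 phase, and Impa2, an inositol phosphatase, had log2 fold changes of -0.57 and -0.75 in old H2O and of 0.54 and 0.29 in old NR hearts. Shld1, a DNA repair protein, had 1.06 and 0.07, and Ypel2, a Yippee-like protein, -0.40 and -1.09. Sun1, a protein of the nuclear envelope, stood at 785.6, 795.5 and 856.6 at ZT10 against 3844, 1797 and 752.6 at ZT22 in old H2O hearts, so 1 ZT22 heart lay below all ZT10 hearts, and its call was lost under 10 of the 15 alternatives run for the comparison between times. Its interaction with NR was lost under 10 of 21.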

How the data were processed

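Stranded polyadenylated RNA libraries of single hearts were sequenced in single-end reads. According to the study's methods and the submitters' notes, the authors trimmed reads (Trimmomatic 0.39), aligned them to mm10 (STAR 2.7.10a), removed duplicates (Picard 3.0.0), multimapping, ribosomal and mitochondrial reads, and counted reads per gene (featureCounts 2.0.4). The heart table used holds counts deposited by the authors under a normalized name (whole numbers, library totals of 3922137 to 7562215). The other heart table, named raw, holds a score, counts that the authors divided by size factors and rounded before they deposited it, and was used for gene symbols and checks. Precision is limited by 3 mice per group.

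All 20764 genes of the 18 hearts were filtered at an average count over 5, leaving 15443, and fitted with edgeR 4.0.16 in R 4.3.3 (TMM, 6 group means, 12 residual degrees of freedom, quasi-likelihood F-tests, two-sided, Benjamini-Hochberg adjusted p under 0.05). Contrasts were ZT10 against ZT22 and its interactions with age and NR. Alternatives were DESeq2 1.42.0, other filters and size factors, only the hearts compared, covariates for library size or summed atrial markers, a replicate block, and each heart left out. On counts simulated for the old H2O comparison of 15443 genes, 115, 159 and 186 of 200 genes changed by 0.5, 1 and 2 on the log2 scale were recovered. Gene positions are from GENCODE M21 (GRCm38), in which 20737 of the genes were found.

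The members and gene lists were chosen with earlier results of these data known. Genes were named by rule: the 12 largest called and non-overlapping changes in each direction with a mean normalized count of at least 50, all genes of the 4 clock lists, up to 4 called members of each other list with the lowest adjusted p (or the member with the lowest p where none was called), the 4 largest in each direction for each interaction among genes also called between the times, the most abundant and called markers of each cell type, and up to 3 called genes of other biotypes in each direction. Of the genes so named, 2 are not reported here, though the counts of their lists include them. The libraries of HL-1 cells were not used here.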

Additional observations from a re-analysis of the deposited data

Results flagged for a closer look

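The results listed here differ between groups of mice, as judged by the interaction term of the edgeR fit (adjusted p under 0.05), and no explanation was weighed. The interaction with age, the change in old H2O minus that in young hearts, was called for 1064 genes and that with NR, the change in old NR minus that in old H2O hearts, for 53. Values are differences of log2 fold changes (ZT10 against ZT22).

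For age, clock genes were Arntl (2.67), Nfil3 (1.60), Clock (0.75), Cry1 (0.51), Per3 (-1.55), Dbp (-1.39), Nr1d2 (-0.79), Per1 (-0.64), Bhlhe41 (-0.58), Tef (-0.57) and Hlf (-0.44), and Klf15 had 0.39. Chaperones and stress genes were Hsp90aa1 (1.13), Dnajb1 (0.88), Dnajb9 (0.54), Ckap4 (0.51), Ier3 (0.59), Ier5 (1.16), Maff (1.49), Ccn2 (1.38) and Cirbp (-1.37). Cell cycle genes were Cdk1 (2.29), Mki67 (1.69), Top2a (1.68) and, from outside the list, Cdk6 (-0.86). Channels, receptors and enzymes were Kcne1 (-1.45), Hcn4 (-0.73), Pde4b (0.75), Adra1b (-0.53), Srebf1 (-0.48), Cngb3, a cyclic nucleotide-gated channel subunit (-1.94), Cmah, a sialic acid hydroxylase (-1.46), and Impa2 (-1.04). Cell type markers were Cldn5 (0.64), Pdgfra (-0.39), Cspg4 (-0.51), Csf1r (-0.39) and Ighm (-1.05). Others were Grip2 (-0.83), Myoc (-1.34), Srrm4 (-0.55), Slc41a3 (0.61), Adam19 (0.73), Shld1 (0.68), Ypel2 (0.84) and the noncoding D830005E20Rik (0.85). The calls of Slc41a3, Tef and Top2a were each lost under 1 of the 21 alternatives, that of Pdgfra under 2, those of Ckap4, Cldn5 and Cry1 under 3, Ighm under 5, Kcne1 under 6, Adra1b under 7 and Ier3 under 9. The calls of Per1, Hlf, Cspg4 and D830005E20Rik were each lost under 10 of the 21 alternatives, that of Klf15 under 11 and those of Csf1r and Srrm4 under 14.

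Of all 649 genes called between the times in old H2O hearts, 451 (69.5%) had the same sign in young hearts, and 39 were called in both with opposite signs. Cngb3 was higher at ZT22 in old H2O hearts (log2 fold change -0.96, with 53.7, 80.6 and 84.85 normalized counts against 132.4, 145.6 and 147.1) and higher at ZT10 in young hearts (0.98), and Cdk6 had -0.57 in old H2O and 0.29 in young hearts, the latter not called.

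For NR, they were Arntl (-1.36), Klf15 (-0.73), Ypel2 (-0.69), Shld1 (-0.98), Kcnj3 (-0.57), Grip2 (1.00), Srrm4 (0.82), Ppargc1b (0.80), Nmrk2 (1.17), Sun1 (2.61), Cdk6 (1.11), Impa2 (1.04), Cspg4 (0.79) and Csf1r (0.56). The interactions of Arntl and Nmrk2 with NR were each lost under 4 of the 21 alternatives, that of Cspg4 under 1, Srrm4 under 5, Csf1r under 6, Kcnj3 under 7, Ppargc1b under 9 and Sun1 under 10, and the other 6 under none. Groups of 3 hearts were too small to test for outlying samples.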

How the results depend on the processing

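Of 125 named genes, 104 were called between the times in old H2O hearts, 63 of these kept their call under all 15 alternatives, and none reversed in sign. The 649 calls of old H2O hearts became 329 with DESeq2 on only the 6 hearts compared (62.9% of the calls were higher at ZT22 with all hearts, 55.9% there) and 365 with the summed atrial markers as a covariate, and between 349 and 746 leaving out 1 heart. The 1064 age by time interactions became 668 with DESeq2 on only the groups compared and 722 to 1248 leaving out 1 heart. The 53 NR by time interactions became 96 with library size and 27 with atrial markers as a covariate, and 15 to 78 leaving out 1 heart. The cause was not tested, though fewer hearts enter the fits that leave some out. The atrial covariate was chosen after seeing the data. The other alternatives stayed within 1.5 times for each comparison.

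The replicate numbers are not stated to pair mice. The deviations of equally numbered old H2O hearts correlated at 0.204, 0.188 and 0.0441. Of the 6 hearts 5 correlated best with their own number, a hint from the data and not the design, and each correlation is counted there from both of its hearts. For replicates 1 to 3 the same correlations were 0.0413, 0.108 and -0.0332 in young hearts and 0.0889, 0.261 and -0.152 in old NR hearts. With a replicate block 688 genes were called between the times (569 of the 649), and 1062 and 66 for the interactions with age and NR. Among genes under 20 normalized counts 0.96% were called, and whether depth set this share was not tested.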

Other observations

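Genes of biotypes other than protein coding made up few of the calls, and 6 of 436 long intergenic RNAs were called, all higher at ZT22, against 627 of 13481 protein-coding genes. Gm45819, a noncoding gene next to Wee1, had 190.3, 262.9 and 210.4 normalized counts at ZT10 and 132.4, 102.8 and 105.7 at ZT22, a log2 fold change of 1.00 (SE 0.16, adjusted p = 0.0004957, edgeR), without overlap and in the direction of Wee1 (0.86). Gm12002 (0.73) was also higher at ZT10. Dnm3os, the host of a microRNA cluster antisense to Dnm3, had 43.19, 60.45 and 47.66 against 85.75, 87.34 and 102.1 (log2 fold change -0.86, SE 0.19, adjusted p = 0.007967, edgeR), and Gm17029 was higher at ZT22 as well (-0.70). The call of Dnm3os was lost with the atrial covariate and without ZT10 replicate 1 or ZT22 replicate 3, and that of Gm17029 in both DESeq2 fits and without any 1 heart but ZT22 replicate 1. Where such a gene overlaps or adjoins a coding gene, how its reads were assigned was not tested.

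Cyp1a1, a target of the aryl hydrocarbon receptor, was chosen after its values were seen and lies under the minimum count for naming. It had 4.7, 14.4 and 8.1 normalized counts at ZT10 and 171.5, 49.1 and 13.6 at ZT22 (log2 fold change -2.88, adjusted p = 0.0208, edgeR), so 1 ZT22 heart overlapped the ZT10 hearts and another carried most of the difference.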
